A study of Mus musculus with 4 samples.

Results

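The genes described here are the 55 that carry a cell into and through mitosis: the cyclins and phosphatases of mitotic entry, the Aurora and Polo-like kinases and their relatives, the chromosomal passenger complex, the spindle checkpoint, the proteins of anaphase onset, the kinetochore, the mitotic kinesins, the proteins of the spindle and of cytokinesis, those that shape mitotic chromosomes, and the transcription factor Foxm1. They were chosen by name, with earlier results of these data known. Each was measured by the brightest of its non-control probes on a mouse expression array. All 55 had a probe among the 39429 non-control probes, and 53 of them were among the 21961 gene names that could be tested, that is, with a probe well above background in 2 or more of the 4 arrays. Aurkb and Kif14 stayed near background on every array and were not tested. Each probe is a 60-base stretch of a transcript, and on the mm9 build of the files those used for the genes most often referred to lie at chr10:68801072-68801131 (Cdk1), chr9:122927298-122927357 (Kif15), chr6:128324783-128324842 (Foxm1), chr7:142881591-142881650 (Mki67) and chr11:43233801-43233860 (Pttg1). Which exon or untranslated region a probe falls in was not examined here.

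Total RNA came from cultured breast cancer cells derived from tumours of the MMTV-Neu model. There a promoter of mammary tumour virus, active in mammary epithelium, expresses Neu, the rodent form of Her2 (gene Erbb2). The cells carried either both copies of the p21-activated kinase gene Pak1 (Neu:Pak1+/+, n = 2) or neither (Neu:Pak1-/-, n = 2), and the design text gives 2 different tumours for each group. Both groups carried the transgene, were grown in low calcium medium with horse serum, were serum starved for 3 h and then received EGF for 15 min, so every value describes cells under acute growth factor stimulation. Strain, age and the number of passages are not given in the sources used here. Nothing states whether the cells of a tumour are a clone, and p-values measure the spread between these samples only. The arrays labelled Pak1-/- lay at positions 1 and 2 of the slide and those labelled Pak1+/+ at positions 3 and 4, so position and genotype cannot be told apart.

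Values are normalised log2 intensities, and a difference is Pak1-/- minus Pak1+/+ on that scale, with its standard error (SE) from limma and a p-value adjusted over all 27229 probes tested. A gene is called lower or higher where the adjusted p was under 0.05. The median spot intensity was 322 to 331 per array over a local background of 39.0 to 42.0. Arrays of a group correlated at 0.997 across probes and arrays of different groups at 0.954 to 0.959, with probes not being independent replicates. The Pak1 probe was not lower in the arrays labelled Pak1-/-: it read 12.21 and 12.25 there against 12.04 and 12.04 in those labelled Pak1+/+ (difference 0.19, adjusted p = 0.070). Under cyclic loess normalization it was called higher there (0.27, adjusted p = 0.027). Whether the probe lies in the deleted part of the gene is not stated, and all directions below follow the labels. The Erbb2 probe was lower in the Pak1-/- cells (difference -0.31, adjusted p = 0.020). Whether it reads the Neu transgene, the cells' own Erbb2 or both was not examined.

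As background, a cell enters mitosis when the kinase Cdk1, bound to cyclin B, is switched on by Cdc25 phosphatases. Condensed chromosomes then attach through kinetochores to a spindle built by kinesins, while the spindle checkpoint holds back the anaphase-promoting complex until every chromosome is attached. Most of these genes are transcribed in G2 and M phase, and their transcript levels in a culture are widely used as a measure of proliferation.

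Mitotic genes were broadly lower in the Pak1-/- cells. Of the 53 tested, 39 were lower, 1 was higher and 13 did not pass the threshold. The genes lower included Kif15, Foxm1, Cdc25c, Mad2l1, Cdk1 and Mki67, and the single gene higher was Pttg1, which encodes securin. In all genes tested, 28.2% were lower and 22.8% higher, and 51.9% of all probes passed in either direction. The median difference over the 53 genes was -0.64 (quartiles -1.02 and -0.38, range -1.56 to 0.42), beside -0.055 over all genes. A lower level by at least 2-fold was reached by 14 of the 53 genes, against 5.62% of all genes. Both Pak1-/- arrays lay below both Pak1+/+ arrays for 45 of the 53, against 43.4% of all genes. They lay above both for 5 of the 53, against 7503 of the 21948 genes with values on every array. The groups overlapped for 3 (Kifc1, Kif2c and Melk). The median level of the 53 genes was 13.13 and 13.29 in the Pak1-/- arrays and 13.93 and 13.87 in the Pak1+/+ arrays. In bulk RNA, fewer cells in mitosis and less of each transcript per cell cannot be told apart.

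**Figure D1:**
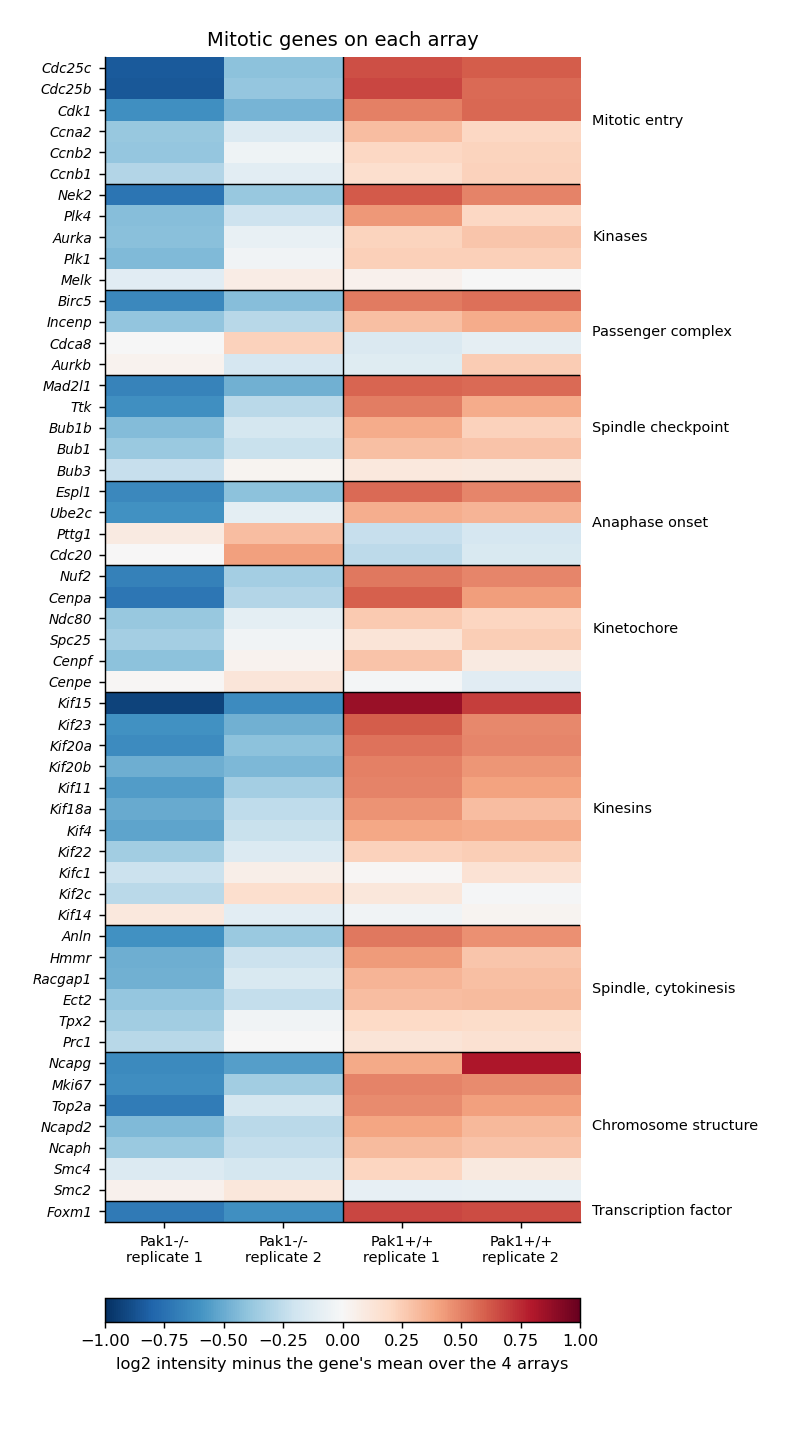
Level of each of the 55 mitotic genes on each array, as log2 intensity minus the mean of that gene over the 4 arrays (blue lower, red higher), with genes grouped by role. Most rows are blue in both Pak1-/- columns and red in both Pak1+/+ columns. Cdc20, Pttg1, Cdca8, Smc2 and Cenpe were above both Pak1+/+ arrays in both Pak1-/- arrays, and Aurkb and Kif14, which were not well above background, show no pattern by group.

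What the members shared beyond their names was looked for in their promoters, since genes of this kind are known to be held silent outside G2 and M phase through a cell cycle genes homology region (CHR), bound by the DREAM and MuvB complexes, beside CCAAT boxes bound by NF-Y. RefSeq promoters (GRCm38.p6, 250 bases before to 50 after the annotated start) were found for 47 of the 55 genes. Aurkb, Ccna2, Cdc25c, Foxm1, Incenp, Kif20a, Smc4 and Tpx2 were not matched. A CHR, searched as TTTGAA or TTCGAA on both strands, was present in 39 of the 50 member promoters (78.0%), against 19.2% of all 32851 promoters of this length. A CCAAT box, searched as CCAAT on both strands, was present in 37 (74%) against 37.4%, and both motifs in 34 (68.0%) against 7.52%. By call, 21 of the 33 lower genes with a promoter had both (63.6%), and so did 9 of the 12 that did not pass (75%). Pttg1, the gene that was higher, had neither. Counted by gene, both motifs were present for 66.0% of the 47 members, 29.4% of 68 other mitotic genes, 35% of 20 regulators and 19% of 21 S phase genes, lists that are described further on, and for 8.61% of all genes. A match describes the letters and does not show that a factor binds.

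The promoters below are those of 6 strongly lower genes, taken by size of difference among genes with values given on every array and both motifs. Kif15 (-1.56), Mad2l1 (-1.15), Nek2 (-1.11) and Birc5 (-1.07) were passed over because their promoters did not hold both motifs. The promoter of Cdc20 was added after its values were seen because its level ran the other way with the same motifs. Each is written 5′ to 3′ on the strand of the gene, in lower case, with CHR (TTTGAA or TTCGAA) and CCAAT box (CCAAT, or ATTGG where it lies on the other strand) in capitals, and no CHR shown shares a base with a CCAAT box. The regions are chr2:131186698-131186997 (plus strand) for Cdc25b, chr5:45669675-45669974 (plus) for Ncapg, chr9:61946750-61947049 (minus) for Kif23, chr10:69352863-69353162 (minus) for Cdk1, chr15:102296043-102296342 (plus) for Espl1, chr5:30666636-30666935 (plus) for Cenpa and chr4:118437294-118437593 (minus) for Cdc20.
Cdc25b: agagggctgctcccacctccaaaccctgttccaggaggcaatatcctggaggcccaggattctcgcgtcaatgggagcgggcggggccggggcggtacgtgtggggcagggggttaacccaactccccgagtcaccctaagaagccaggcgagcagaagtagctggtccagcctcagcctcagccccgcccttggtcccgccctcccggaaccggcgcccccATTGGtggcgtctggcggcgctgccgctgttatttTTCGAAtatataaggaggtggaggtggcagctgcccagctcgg
Ncapg: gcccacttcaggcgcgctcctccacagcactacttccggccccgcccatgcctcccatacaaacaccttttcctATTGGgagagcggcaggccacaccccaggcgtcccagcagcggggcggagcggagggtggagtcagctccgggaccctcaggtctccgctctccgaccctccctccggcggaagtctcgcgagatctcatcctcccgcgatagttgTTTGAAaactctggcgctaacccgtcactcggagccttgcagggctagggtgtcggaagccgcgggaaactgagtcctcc
Kif23: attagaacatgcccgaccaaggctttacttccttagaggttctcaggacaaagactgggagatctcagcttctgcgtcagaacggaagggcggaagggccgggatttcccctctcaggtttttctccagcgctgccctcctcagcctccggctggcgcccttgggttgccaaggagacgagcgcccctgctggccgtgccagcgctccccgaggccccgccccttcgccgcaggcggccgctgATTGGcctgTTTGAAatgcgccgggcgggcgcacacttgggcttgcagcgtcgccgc
Cdk1: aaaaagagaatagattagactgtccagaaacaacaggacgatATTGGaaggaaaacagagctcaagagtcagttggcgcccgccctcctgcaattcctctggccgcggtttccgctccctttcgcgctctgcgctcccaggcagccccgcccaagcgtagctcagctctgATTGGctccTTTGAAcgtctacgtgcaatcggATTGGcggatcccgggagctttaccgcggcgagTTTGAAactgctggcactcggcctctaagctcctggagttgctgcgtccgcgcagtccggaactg
Espl1: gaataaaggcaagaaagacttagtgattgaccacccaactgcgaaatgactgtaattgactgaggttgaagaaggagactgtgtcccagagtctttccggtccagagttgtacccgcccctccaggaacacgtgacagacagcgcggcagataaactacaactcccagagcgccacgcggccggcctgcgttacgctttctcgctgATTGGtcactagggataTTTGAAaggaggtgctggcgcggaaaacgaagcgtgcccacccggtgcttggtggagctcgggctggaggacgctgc
Cenpa: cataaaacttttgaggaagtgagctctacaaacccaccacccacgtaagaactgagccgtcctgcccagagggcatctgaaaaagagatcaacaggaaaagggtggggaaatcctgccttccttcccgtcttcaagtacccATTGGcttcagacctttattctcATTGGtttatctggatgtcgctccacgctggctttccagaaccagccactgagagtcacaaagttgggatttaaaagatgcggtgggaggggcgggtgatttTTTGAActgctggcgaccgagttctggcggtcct
Cdc20: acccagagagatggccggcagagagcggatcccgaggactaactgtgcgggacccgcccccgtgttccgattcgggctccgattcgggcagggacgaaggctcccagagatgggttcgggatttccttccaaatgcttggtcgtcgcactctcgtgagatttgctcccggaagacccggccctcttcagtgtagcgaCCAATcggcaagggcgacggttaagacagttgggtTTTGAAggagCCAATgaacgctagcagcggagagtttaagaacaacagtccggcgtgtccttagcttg
Cdk1 carried 2 CHRs, 71 and 15 bases before the start, and 3 CCAAT boxes. In Espl1 the CHR began 27 bases before the start and in Ncapg 30 bases before it. The CHR of Kif23 began 2 bases after the annotated start base, that of Cdc25b 7 bases after and that of Cenpa 16 bases after. In Cdc20 the CHR began 18 bases before the start, between 2 CCAAT boxes.

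All 6 genes of mitotic entry were lower (median difference -0.80). Cdk1, the kinase that drives entry, read 12.45 and 12.59 in the Pak1-/- replicates and 13.56 and 13.63 in the Pak1+/+ replicates, a difference of -1.08 (SE 0.085, adjusted p = 0.0010). Cdc25b, a phosphatase that activates Cdk1, read 11.96 and 12.43 against 13.48 and 13.38 (-1.23, SE 0.17, adjusted p = 0.0045). For Cdc25c, the second such phosphatase, the values were 10.24 and 10.68 against 11.73 and 11.69 (-1.25, SE 0.16, adjusted p = 0.0035). In each of the 3 genes the groups were separated by more than the distance between replicates. The cyclins that partner Cdk1 differed less. Ccnb1, cyclin B1, read 13.70 and 13.89 against 14.16 and 14.22 (-0.40, SE 0.093, adjusted p = 0.022). Ccna2, cyclin A2, differed by -0.52 (adjusted p = 0.016). Ccnb2 differed by -0.43 (adjusted p = 0.047), and this call ended in 8 of 13 alternatives at the same threshold, the authors' deposited log2 table among them. Further probes of Ccnb1 gave -0.60 (adjusted p = 0.054) and -0.42 (adjusted p = 0.107), which did not pass. With the mean of its probes as the value of the gene, the call of Ccnb1 ended (-0.47, adjusted p = 0.054).

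Among the mitotic kinases outside the passenger complex, 3 of 5 were lower (median -0.50). Nek2, a kinase that separates centrosomes, read 10.93 and 11.28 in Pak1-/- cells and 12.28 and 12.16 in Pak1+/+ cells (-1.11, SE 0.14, adjusted p = 0.0033). Plk4, the kinase that licenses centriole duplication, differed by -0.64 (adjusted p = 0.012). Aurka, which matures centrosomes and builds spindle poles, read 13.30 and 13.64 against 13.94 and 13.99 (-0.50, SE 0.13, adjusted p = 0.032). Its call ended under cyclic loess (-0.40, adjusted p = 0.051) and with no filter on dim probes (adjusted p = 0.056). Plk1, which acts from entry to cytokinesis, read 14.19 and 14.59 against 14.86 and 14.87 and missed the threshold narrowly (-0.48, SE 0.15, adjusted p = 0.0501). Its Pak1-/- replicates lay apart by almost as much as the groups did. Melk, a kinase named for its maternal embryonic expression, read 12.30 and 12.48 against 12.45 and 12.40, and the groups overlapped (-0.036, SE 0.091, adjusted p = 0.765).

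The chromosomal passenger complex corrects faulty attachments and consists of the kinase Aurora B (Aurkb) with Incenp, survivin (Birc5) and borealin (Cdca8). Birc5 read 15.03 and 15.25 in the Pak1-/- replicates and 16.20 and 16.23 in the Pak1+/+ replicates (-1.07, SE 0.099, adjusted p = 0.0015). Incenp, the scaffold, was also lower (-0.67, adjusted p = 0.0031). Cdca8, 1 of the members on chromosome 4 that are taken up further on, differed by 0.23 and did not pass (adjusted p = 0.125). The Aurkb probe read 6.38 and 6.18 against 6.22 and 6.60 and was not well above background, so nothing can be said of its level.

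In the spindle checkpoint 4 of 5 genes were lower (median -0.61). Mad2l1 encodes Mad2, which sequesters the activator Cdc20. Its probe read 13.20 and 13.39 against 14.45 and 14.43 (-1.15, SE 0.091, adjusted p = 0.0010). Ttk, the kinase that starts checkpoint signalling at unattached kinetochores, differed by -0.88 (adjusted p = 0.0068). Bub1b, encoding BubR1, read 11.87 and 12.13 against 12.68 and 12.54 (-0.61, SE 0.12, adjusted p = 0.012), and Bub1 differed by -0.59 (adjusted p = 0.0048). Bub3, which brings both to kinetochores, differed by -0.20 and did not pass (adjusted p = 0.173).

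The 4 genes of anaphase onset were divided, with 2 lower, 1 higher and 1 that did not pass. Espl1 encodes separase, the protease that cuts cohesin. It read 11.35 and 11.58 in Pak1-/- cells and 12.56 and 12.48 in Pak1+/+ cells (-1.05, SE 0.10, adjusted p = 0.0018). Pttg1, whose product securin inhibits separase, read 14.33 and 14.55 against 14.01 and 14.07 (0.40, SE 0.099, adjusted p = 0.027). A second Pttg1 probe also was higher, by 0.35. The call of Pttg1 ended with intensities processed by the scanner software and scaled to the 75th percentile (0.32, adjusted p = 0.126). Ube2c, the conjugating enzyme of the anaphase-promoting complex, was lower (-0.70, adjusted p = 0.029), a call that ended with no filter on dim probes (adjusted p = 0.051). Cdc20, the activator of that complex and the target of Mad2, read 15.36 and 15.77 against 15.10 and 15.20, above both Pak1+/+ arrays but without passing (0.42, SE 0.15, adjusted p = 0.080).

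Kinetochore genes were lower in 3 of 6 cases (median -0.43). Cenpa, the histone variant that marks centromeres, read 13.16 and 13.60 against 14.49 and 14.31 (-1.02, SE 0.17, adjusted p = 0.0078). Nuf2 and Ndc80 encode partners in the complex that grips microtubules. Nuf2 differed by -1.02 (adjusted p = 0.0037) and Ndc80 by -0.48 (adjusted p = 0.024). Spc25, of the same complex, read 14.48 and 14.78 against 14.95 and 15.07 and did not pass (-0.38, SE 0.13, adjusted p = 0.061). Cenpf, a large protein of the outer kinetochore, read 8.14 and 8.58 against 8.84 and 8.63 (-0.38, SE 0.17, adjusted p = 0.136). Cenpe, a kinesin-like motor that brings chromosomes to the spindle equator, read 15.03 and 15.14 against 15.00 and 14.91 (0.13, SE 0.081, adjusted p = 0.240).

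The kinesins held the most negative difference among the 53 members, and 8 of the 10 tested were lower (median -0.83). Kif15, a motor that helps keep spindle poles apart, read 9.97 and 10.26 in Pak1-/- cells and 11.76 and 11.59 in Pak1+/+ cells, a difference of -1.56 or 2.95-fold (SE 0.13, adjusted p = 0.0012). Kif11, or Eg5, the main motor for pole separation, read 10.91 and 11.13 against 11.97 and 11.87 (-0.90, SE 0.10, adjusted p = 0.0025). The motors of the central spindle and midbody were lower too. Kif23 read 12.89 and 13.01 against 14.10 and 13.97 (-1.09, SE 0.088, adjusted p = 0.0011), and Kif20a read 12.31 and 12.53 against 13.49 and 13.43 (-1.04, SE 0.099, adjusted p = 0.0017). Kif20b differed by -0.94, Kif18a, which dampens chromosome movements, by -0.76, Kif4, a chromosome arm motor, by -0.76 and Kif22 by -0.48, all lower. The remaining pair of motors works by other means, Kifc1, which walks towards minus ends, and Kif2c, or MCAK, which takes microtubule ends apart. Kifc1 read 12.69 and 12.96 against 12.92 and 13.05 (-0.16, SE 0.12, adjusted p = 0.323). Kif2c read 10.47 and 10.90 against 10.85 and 10.73 (-0.10, SE 0.16, adjusted p = 0.629). In both the groups overlapped.

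Spindle and cytokinesis genes were lower in 4 of 6 cases (median -0.63). Anln, anillin of the contractile ring, differed by -0.98 (adjusted p = 0.0021). Racgap1 and Ect2 position that ring through RhoA, and they differed by -0.64 (adjusted p = 0.014) and -0.62 (adjusted p = 0.0040). Hmmr, which organises spindle poles, differed by -0.71 (adjusted p = 0.0092). Tpx2, which activates Aurora A on the spindle, read 13.22 and 13.54 against 13.77 and 13.75 and did not pass (-0.38, SE 0.12, adjusted p = 0.056), although its second probe was lower (-0.53, adjusted p = 0.023). Prc1, which bundles the central spindle, differed by -0.28 (adjusted p = 0.097).

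Of the genes of chromosome structure 6 of 7 were lower (median -0.72). Mki67, the proliferation antigen that coats mitotic chromosomes, read 15.17 and 15.44 against 16.28 and 16.26 (-0.96, SE 0.11, adjusted p = 0.0028). Top2a, the topoisomerase that untangles sister chromatids, read 12.76 and 13.29 against 13.93 and 13.87 (-0.88, SE 0.19, adjusted p = 0.017). The condensin I subunits followed. Ncapg read 7.90 and 7.98 against 8.91 and 9.34 (-1.19, SE 0.16, adjusted p = 0.0040), Ncapd2 differed by -0.72 and Ncaph by -0.61, both lower. Of the SMC pair common to both condensins, Smc4 was lower by a small amount (-0.31, adjusted p = 0.027), a call that ended under cyclic loess and without any 1 of the arrays. Smc2, on chromosome 4, differed by 0.16 and did not pass (adjusted p = 0.124). Foxm1, the transcription factor that acts on many genes of this kind in G2, read 11.59 and 11.69 against 12.97 and 12.95, a 2.50-fold lower level with replicates close together (-1.32, SE 0.074, adjusted p = 0.00043).

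**Figure D2:**
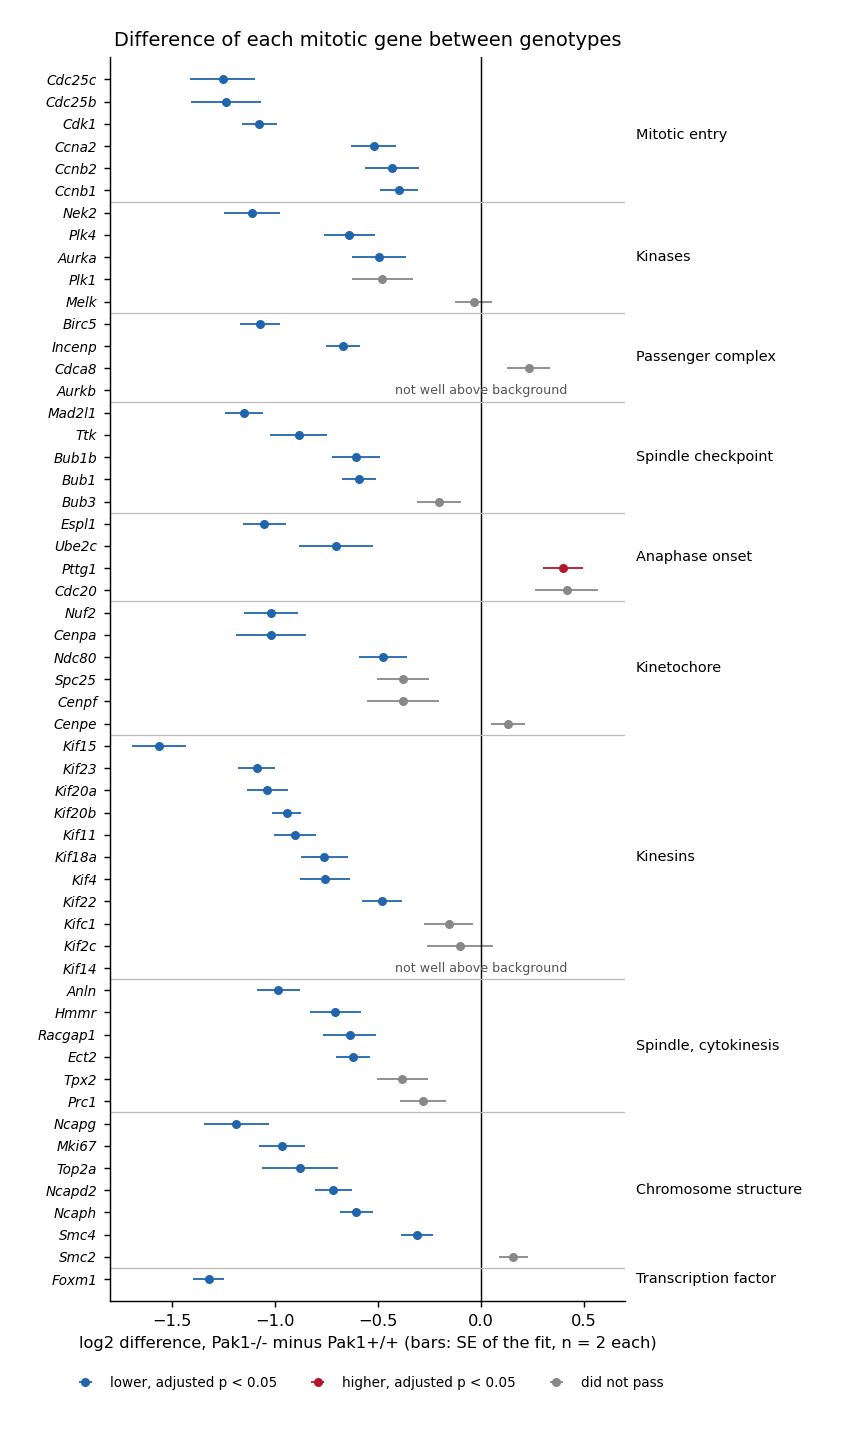
Log2 difference of each mitotic gene, Pak1-/- minus Pak1+/+, with bars for the standard error of the fit (n = 2 in each group), coloured by call and grouped by role. The 39 lower genes reach from -0.31 for Smc4 to -1.56 for Kif15, and Pttg1 at 0.40 is the single gene called higher.

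Several calls ended when a single library was left out. Such a fit has 1 array in that group, which is assumed to vary like the pair of the other group, so calls kept, lost or gained in it describe that fit and are no measure of stability. Leaving out each array in turn, 27 of the 39 lower genes kept their call in all 4 fits, among them every gene lower by at least 2-fold, and none of the 39 changed sign. Without Pak1+/+ replicate 1 the number lower was 28, and the calls of Aurka, Bub1b, Ccna2, Ccnb1, Ccnb2, Kif22, Ndc80, Racgap1, Smc4, Top2a, Ube2c and Pttg1 ended (adjusted p from 0.051 to 0.140). Their differences moved by at most 0.070, as for Aurka at -0.52, Ube2c at -0.69 and Top2a at -0.85, so that here the adjusted p changed more than the difference. Without Pak1+/+ replicate 2 it was 32, with Aurka, Ccnb1, Ccnb2, Kif22, Ndc80, Smc4, Ube2c and Pttg1 no longer passing (0.058 to 0.130), and differences that moved by at most 0.058. Without Pak1-/- replicate 1 it was 33, with Aurka, Ccnb1, Ccnb2, Ndc80, Plk4 and Smc4 no longer passing (0.0502 to 0.074), while Cdc20 (difference 0.62) and Cdca8 (0.35) became higher, with the spread taken from the Pak1+/+ pair alone and limma's shared prior. Differences of members moved by up to 0.26 in this fit (Top2a), and of the genes called, Aurka (-0.33), Ccnb2 (-0.26) and Ube2c (-0.45, still lower) moved by over 1.5 times. Without Pak1-/- replicate 2 it was 44, with Bub3, Cenpf, Plk1, Prc1, Spc25 and Tpx2 now lower and Smc4 and Pttg1 no longer passing.

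The Pak1-/- replicates themselves lay apart across the set. In the Pak1-/- cells, 52 of the 53 genes were higher in replicate 2 than in replicate 1 (98.1%, with Smc4 the exception), against 49.6% of all genes. The median distance between the Pak1-/- replicates was 0.25 for mitotic genes and 0.109 for all genes. In the Pak1+/+ cells 17 of the 53 were higher in replicate 2 (32.1%, against 48.6% of all genes), and the median distance was 0.064, beside 0.082 for all genes. The mitotic genes thus moved together between cultures of 1 genotype as well as between genotypes. At the median they moved by less than the groups differed (0.25 beside -0.64). For some genes, Cenpf, Bub3, Kif2c, Kifc1 and Melk among them, the Pak1-/- replicates lay further apart than the groups. The mitotic genes are not independent observations of the effect of Pak1. The median difference was -0.54 without Pak1-/- replicate 1 and -0.75 without Pak1-/- replicate 2. What set the Pak1-/- replicates apart was not tested.

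**Figure D3:**
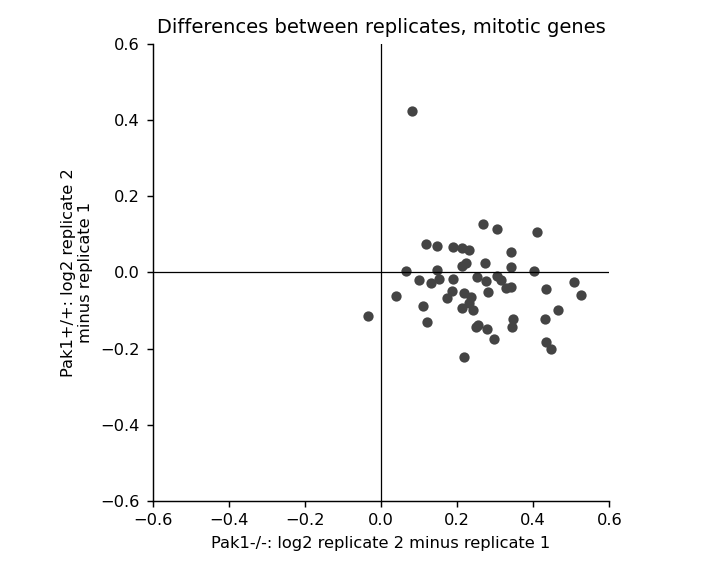
Replicate 2 minus replicate 1 for each of the 53 mitotic genes tested, in log2 units, with the Pak1-/- difference on the horizontal and the Pak1+/+ difference on the vertical axis. All points but that of Smc4 lie to the right of 0, while 17 of the Pak1+/+ differences lie above 0, with Ncapg highest.

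Position on the chromosome was the other feature that separated the members, noticed after their values were seen. The 5 members whose probes lie on mouse chromosome 4 (Kif2c, Melk, Smc2, Cdca8 and Cdc20) had differences from -0.10 to 0.42 with a median of 0.16. None of them was called by limma, and 1 had an unadjusted p under 0.05. With cyclic loess in place of quantile normalization, 3 of them were called higher, Cdc20 (0.53, adjusted p = 0.026), Cdca8 (0.34, adjusted p = 0.041) and Smc2 (0.24, adjusted p = 0.042). That setting also moved the median of all differences upward, from -0.052 to 0.0023, so these calls are not particular to chromosome 4. The 48 members elsewhere had a median of -0.70, with 39 lower, 1 higher and 8 that did not pass. All 1370 genes of chromosome 4 showed a like shift, with a median of 0.19, 16.9% lower and 42.6% higher, beside a median of -0.067 for genes on other chromosomes. Of the 6 further listed cell cycle genes on chromosome 4, E2f2, Nfyc, Rbbp4 and Cdc26 were higher and Rpa2 was lower. Chromosome 3 had a similar median over all genes (0.18), yet 4 of the 5 members there were lower, while of the 4 further listed genes there 1 was higher and the others did not pass (range -0.13 to 0.50). After the median of each chromosome was subtracted, a step added after the values were seen, the members' median was -0.61. What set chromosome 4 apart was not tested.

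**Figure D4:**
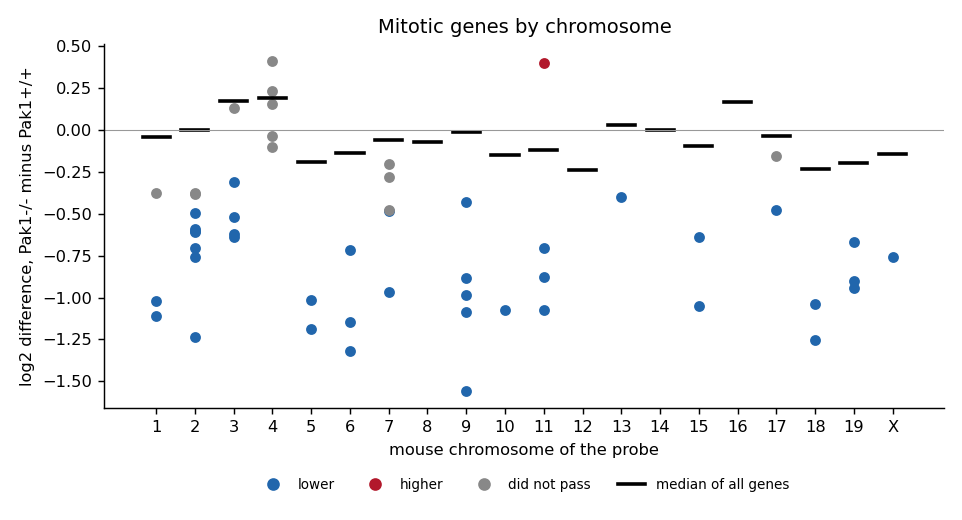
Log2 difference of the 53 mitotic genes tested, Pak1-/- minus Pak1+/+, by the chromosome of the probe, coloured by call, with a black line at the median of all genes of that chromosome. The 5 members on chromosome 4 lie around the raised median of that chromosome, and most members elsewhere lie well below the line of theirs.

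Other genes of mitosis were listed from general knowledge. This list and those of regulators and S phase genes below were written with earlier results of these data known. They are therefore no independent support. Of 80 other mitotic genes listed, 77 had a probe and were tested, and 54 were lower, 6 higher and 17 did not pass (median -0.50). The kinetochore and centromere genes among them were lower in 17 of 19 cases (median -0.73), with Cenpm at -1.56, Kntc1 at -1.35, Cenpu at -1.30, Oip5 at -1.14 and Spc24 at -1.12. Troap, a spindle protein, differed by -1.12. Cohesin and its regulators, which hold sister chromatids together, were lower in 9 of 10 cases, and the exception was Wapl, which releases cohesin and was higher (0.25). Of 13 subunits and regulators of the anaphase-promoting complex, 6 were lower (46.2%, against 28.2% of all genes). The 2 higher were Cdc26 at 0.65 and Anapc2 at 0.53 (15.4%, against 22.8% of all genes). The other genes higher were Cenpj (0.62), Psrc1 (0.50) and Mastl (0.37).

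Regulators of mitotic transcription did not move as a block. Of 24 tested, 11 were lower (45.8%, against 28.2% of all genes), 5 higher and 8 did not pass (median -0.10). The repressor E2f8 was lower (-1.55), as were the pocket protein Rbl1 (-1.11), the CHR-binding MuvB subunit Lin54 (-1.04), Mybl2, or B-Myb, which joins MuvB in S phase (-0.90), the E2F partner Tfdp1 (-0.80) and the NF-Y subunit Nfyb (-0.72). Higher were E2f2 (0.75), the NF-Y subunit Nfyc (0.69), the MuvB subunits Rbbp4 (0.58) and Lin37 (0.31), and Dyrk1a (0.49), the kinase that promotes DREAM assembly. The share higher, 20.8%, lay near the 22.8% of all genes, and E2f2, Nfyc and Rbbp4 lie on chromosome 4, where 42.6% of all genes were higher. Cdkn1a, encoding the inhibitor p21, differed by 0.24 and Trp53 by -0.034, and neither passed. Genes of DNA replication, which act in S phase, were lower in 24 of 26 cases (median -0.90), and none was higher in limma at an adjusted or an unadjusted p under 0.05. Rrm2 (-1.84), Gins1 (-1.37), Prim1 (-1.33), Cdc6 (-1.28), Pole (-1.26) and Cdt1 (-1.25) led them. Genes of both phases were therefore lower, and whether the medians of the lists differ was not tested.

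**Figure D5:**
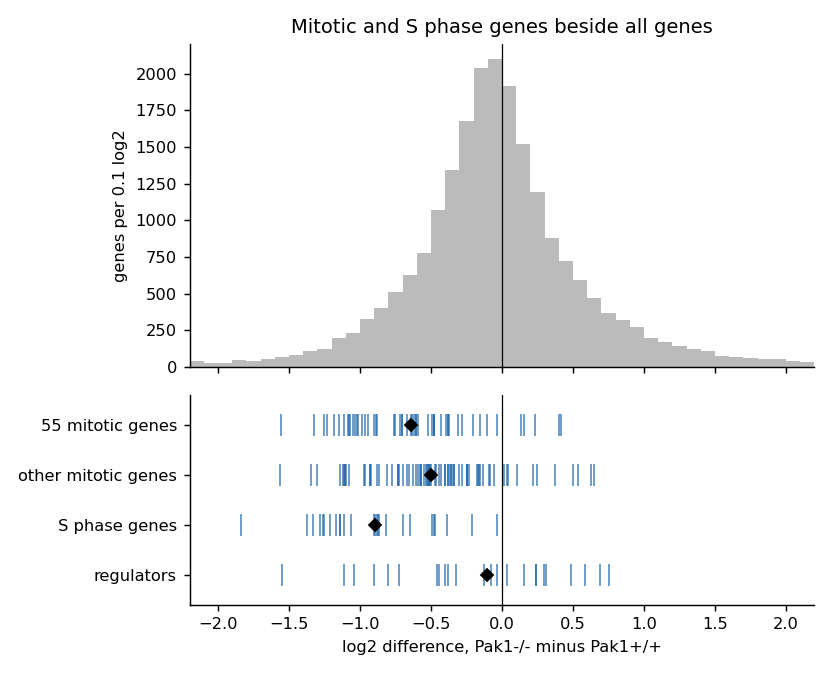
Above, the number of genes per bin of log2 difference, Pak1-/- minus Pak1+/+, over all 21961 genes, with the axis ending at 2.2 on either side. Below, each tick is a gene and each diamond a list's median, at -0.64 for the 55 mitotic genes (53 tested), -0.50 for other mitotic genes, -0.90 for S phase genes and -0.10 for regulators, where all genes have a median of -0.055.

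Cell type markers were read beside these values. All 9 luminal epithelial markers were well above background on some array and 8 on every array. Their summed level, on the log2 scale and made up mostly by Krt8 and Krt18, was 20.26 to 20.28 in Pak1-/- and 20.14 to 20.17 in Pak1+/+ cells. Cdh1 (1.19), Krt8 (0.57) and Krt18 (0.27) were higher in the Pak1-/- cells and Krt7 was lower (-1.10). All 5 basal epithelial markers were higher in the Pak1-/- cells, with a summed level of 16.40 to 16.53 against 14.20 to 14.24. Of 8 fibroblast markers 4 were well above background on any array (summed level 10.43 to 10.61 against 10.24 to 10.29), and Col3a1, Dcn, Lum and Pdgfrb were not. Col1a1 was higher in the Pak1-/- cells (1.12, adjusted p = 0.0051). Of 8 leukocyte markers 7 were well above background on some array, with 2 lower (Ptprc and Emr1) and Lyz2 not above background (summed level 15.68 to 16.19 against 15.42 to 15.56, made up mostly by Itgam, which was not called). Of 4 endothelial markers 3 were above background on some array, and none of them passed (adjusted p from 0.488 to 0.783). The calls on luminal, fibroblast and leukocyte markers, 4 of 9, 1 of 3 and 2 of 6 tested, can be read against all genes, of which 28.2% were lower and 22.8% higher. The basal markers, 5 of 5, differed between the same groups as the mitotic genes in the opposite direction. Between the Pak1-/- replicates, 0 of the 5 basal markers were higher in replicate 2, where 52 of the 53 mitotic genes were. The part of these markers in the result was not tested.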

How the data were processed

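The scanner files the authors deposited hold linear spot intensities from 1-colour (Cy3) Agilent arrays with 60-base probes, made with Feature Extraction 9.5.3.1 per the file headers with no scaling across arrays. A deposited log2 table of the authors, normexp corrected and quantile normalized per their methods, held all 53 tested genes and was used as an alternative. From the scanner intensities, normexp correction was run in limma 3.58.1 under R 4.3.3 with an offset of 50, which was set here and understates changes of dim probes. Control spots were left out, log2 values were quantile normalized, and the spots of a probe were averaged. The filter kept the 27229 probes that were well above background in 2 or more arrays. Groups were compared by lmFit and eBayes, two-sided, with genotype as the only term and Benjamini-Hochberg adjustment over the probes kept. An exact permutation test of 2 against 2 cannot go below 0.333 and was not used. The number of arrays limits the precision.

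The brightest probe stood for a gene. The members and all lists were chosen with earlier results of these data known. Every member is named. Values on every array are given for 12 genes named by hand, the 12 largest differences among those called, the members called in the rarer direction, those over 0.3 that did not pass, and the 4 smallest differences. Of other lists up to 6 called genes per direction are named. Motifs were counted in Python 3.11.15, and the fit was tested on simulated data. The alternatives changed the background correction, the normalization, the filter, the probe of a gene, the threshold, the samples and the replicate block.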

Additional observations from a re-analysis of the deposited data

How the results depend on the processing

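Members lower numbered 28 to 44 without each replicate in turn, members higher 0 to 3 (0 to 3 also at an unadjusted p under 0.05), and the median difference ran from -0.75 to -0.54. Without each replicate, regulators higher numbered 3 to 5. Cyclic loess gave 5 members higher (Pttg1, Cenpe and the chromosome 4 genes Cdc20, Cdca8 and Smc2), 8 regulators higher and a median of -0.54, with Melk at 0.048 rather than below 0. Without each replicate Melk ran from -0.13 to 0.057 and Kif2c from -0.32 to 0.11, above 0 without Pak1-/- replicate 1. Intensities processed by the scanner software and scaled to the 75th percentile gave 0 members higher in limma, adjusted or at an unadjusted p under 0.05. With the replicate block 41 members were lower and 2 higher. The labels do not state whether equal replicate numbers pair the samples. Over the probes kept, replicate differences of the groups correlated at -0.028, which cannot settle this. At an adjusted p under 0.01, 8878 probes, 34 other mitotic genes, 7 regulators lower and 3 higher, and 0 members higher passed (2 at an unadjusted p under 0.05). Of the members called lower or higher at 0.05, 13 no longer passed at 0.01, all of them lower but Pttg1. With a 2-fold change also required, 3413 probes, 14 members lower, 10 other mitotic genes lower, 3 regulators lower and 12 S phase genes lower passed, with 0 members, 0 other mitotic genes and 0 regulators higher. Over 15 alternatives and the 53 members, 692 of 795 values stayed in the same direction and on the same side of their threshold, 78 no longer passed, 22 newly passed and 3 changed sign. The cause of these changes was not tested. Aurkb and Kif14 are limited by signal over background.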
